A study of Rattus norvegicus with 36 samples.

Results

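Acute withdrawal from cocaine was compared with no cocaine in the nucleus accumbens (NAc), across all mature miRNAs counted by small RNA sequencing. The comparison used 8 of the 36 libraries of the series, 4 from withdrawal rats and 4 from naive rats, taken by the region and group in their labels. Withdrawal rats were male heterogeneous stock (HS) rats, an outbred line, that had self-administered intravenous cocaine (0.5 mg/kg) in 10 sessions of 2 h and then in 14 sessions of 6 h. They were killed at acute withdrawal, which is 16 h after the last session in the sample labels and 18 h in the methods of the study. Naive rats were age-matched male HS rats without cocaine, 4 per group, and each rat gave 1 NAc library. Withdrawal rats also had catheter surgery under isoflurane and behavioral tests that included progressive ratio and foot shock. The methods mention neither for naive rats, so these steps cannot be told apart from cocaine withdrawal. The infralimbic (IL) and prelimbic (PL) cortex of the same rats, and a group with 4 weeks of abstinence, made up the rest of the series and served here only for reference. The NAc was cut as a block from frozen sections, so each library mixes all cell types of the tissue, and fewer cells of a type cannot be told apart from less miRNA per cell.

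The NAc is the ventral part of the striatum. Its projection neurons carry dopamine receptors, and cocaine raises dopamine there by blocking its reuptake. A miRNA is a short RNA that guides a silencing complex to messenger RNAs, mostly by pairing of its seed, bases 2 to 8, so miRNAs with the same seed can share targets. The miR-200 family and the miR-183 cluster are known from epithelia and from olfactory and other sensory cells, miR-338 from myelinating oligodendrocytes, and miR-382 is processed from the large imprinted Dlk1-Dio3 locus.

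The mature sequences of the miRNAs on which the comparison turned are given here from RefSeq (assembly GRCr8), 5′ to 3′ with the seed in capitals. They were chosen because they passed the thresholds described below or led the miRNAs next to them. The first set holds members of the miR-200 family and the miR-183 cluster.
rno-miR-200c-3p: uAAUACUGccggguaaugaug
rno-miR-200b-5p: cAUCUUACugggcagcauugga
rno-miR-200a-5p: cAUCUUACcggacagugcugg
rno-miR-183-5p: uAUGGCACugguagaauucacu
rno-miR-182: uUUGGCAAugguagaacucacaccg
The 5p arms of miR-200b and miR-200a share the seed AUCUUAC. They lie on 1 strand of chromosome 5, at chr5:171931548-171931569 and chr5:171930770-171930790, both on the minus strand. The miR-200c-3p sequence lies at chr4:159209969-159209989, and miR-183-5p and miR-182 lie at chr4:59756106-59756127 and chr4:59752249-59752273, all 3 on the minus strand. Also in this set by name were miR-200a-3p, miR-200b-3p and miR-429.

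The second set holds the other miRNAs past the thresholds and the leading ones below them.
rno-miR-3550: cCGAGCCCaucccugcccuag
rno-miR-207: cUUCUCCUggcucuccucccuuu
rno-miR-217-5p: uACUGCAUcaggaacugacugg
rno-miR-382-3p: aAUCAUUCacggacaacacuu
rno-miR-338-3p: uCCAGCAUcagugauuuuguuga
rno-miR-340-5p: uUAUAAAGcaaugagacugauu
rno-miR-29b-3p: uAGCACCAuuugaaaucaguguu
rno-miR-29c-3p: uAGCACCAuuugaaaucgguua
rno-miR-181d-5p: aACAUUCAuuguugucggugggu
Of these, miR-29b-3p and miR-29c-3p share the seed AGCACCA with miR-29a-3p, and miR-181d-5p shares ACAUUCA with the other 3 measured miR-181 5p arms. The remaining 6 have seeds that differ from each other. The 5 of them past the thresholds come from different chromosomes: miR-3550 from 19, miR-207 from 5, miR-217-5p from 14, miR-382-3p from 6 and miR-338-3p from 10.

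The 8 libraries held 10251905 to 14840649 counts in withdrawal rats and 9509360 to 12757547 in naive rats. RNA integrity numbers (RIN) were 8.9 to 9.2 in withdrawal rats and 8.1 to 9.2 in naive rats, where the 8.1 belonged to rat M476. Pearson r of log2 CPM (CPM being counts scaled to library size after TMM normalization) between the 8 libraries lay between 0.967 and 0.991. miR-187-3p was picked because it was higher in the NAc than in the cortex of these same libraries, so its level describes the regions and is no check of the tissue label. It was 1191 to 2003 CPM in the 8 NAc libraries, against 73.5 to 345.8 CPM in the IL and 68.3 to 94.98 CPM in the PL of the same rats. The neuronal miR-124-3p was at 2844 to 5618 CPM in the 8 NAc libraries, which marks neural tissue and not the NAc within it. Libraries were sequenced in pools of 12, and with no record in the sources of the pool of each library, its part in the levels was not tested.

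Few miRNAs differed between withdrawal and naive NAc, and none did after adjustment for the number tested. A miRNA was called when edgeR's quasi-likelihood test gave an unadjusted p under 0.05 and the change was 1.5-fold or more. Of 457 miRNAs tested, 10 were called higher (2.19%) and 3 lower (0.656%) in withdrawal rats, 13 in either direction (2.84%). An unadjusted p under 0.05 was reached by 20 miRNAs (4.38%), and 0 had a Benjamini-Hochberg adjusted p under 0.05 in edgeR, limma-voom or DESeq2. The lowest adjusted p in edgeR was 0.840. All 13 calls therefore rest on unadjusted p-values. The median log2 fold change over all 457 was 0.009, and 394 of them changed by less than 1.5-fold either way.

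**Figure D1:**
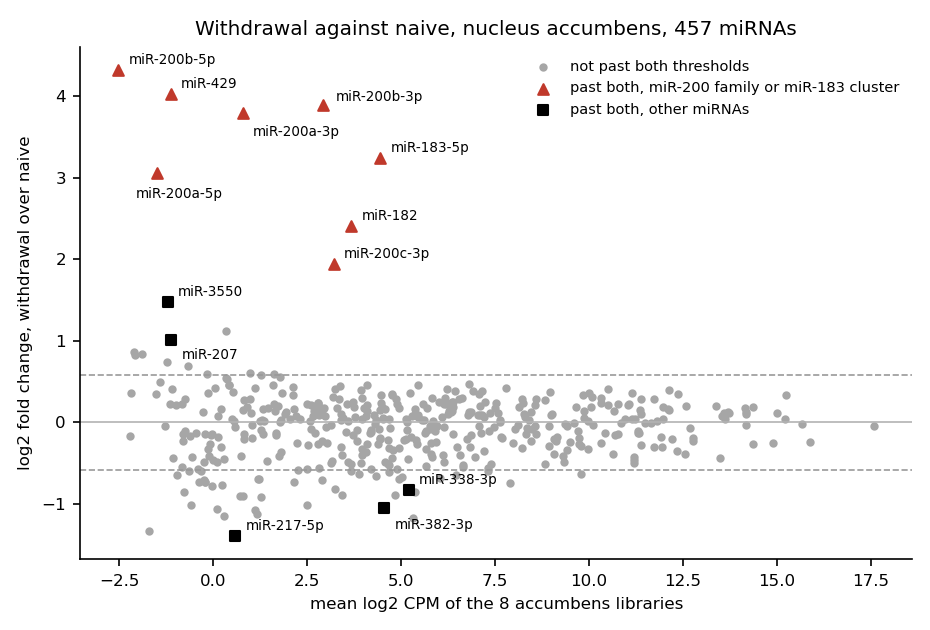
Log2 fold change of withdrawal over naive NAc (edgeR, vertical axis) against the mean log2 CPM of the 8 libraries (horizontal axis), 1 point per miRNA, with dashed lines at 1.5-fold. The 8 triangles of the miR-200 family and miR-183 cluster stand between 1.94 and 4.32, and 12 of the 13 called miRNAs have a mean log2 CPM under 5.

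The 5 most abundant miRNAs overlapped between the groups, and none of them was called. miR-128-3p, a miRNA enriched in neurons and the most abundant here, had 227000, 166900, 262800 and 145800 CPM in withdrawal rats and 164500, 194700, 191700 and 262300 CPM in naive rats. The groups overlapped across their whole range, and the log2 fold change was −0.04 ± 0.30 (SE, n = 4 each). For miR-26a-5p, miR-9a-5p, miR-125a-5p and let-7i-5p, the next most abundant, log2 fold changes were −0.24, −0.02, 0.34 and 0.04. Among them miR-125a-5p, of the miR-125 family, had 48550, 51970, 37550 and 38270 CPM in withdrawal rats and 39170, 37990, 31260 and 31330 CPM in naive rats. Its log2 fold change of 0.34 ± 0.18 (SE) had an unadjusted edgeR p of 0.0714.

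The precision of these estimates bounds what 4 rats against 4 could show. The 95% interval of the fold change, from limma-voom, lay within 1.5-fold either way for 96 of 457 miRNAs (21.0%). Among the 224 with a mean log2 CPM of at least 5 it did so for 75. The median half-width of the interval was 0.498 on the log2 scale for these and 0.808 for the less abundant ones. For the remaining miRNAs a change of 1.5-fold in at least 1 direction lay inside the interval.

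Of the 13 calls, 8 were members of the miR-200 family and the miR-183 cluster, and all 8 rested on 1 rat. miR-200b-3p, the member of the family with the most counts in that rat, had 6.15, 3.95, 342.4 and 2.04 CPM in withdrawal rats M153, M366, M172 and M154, and 6.57, 3.57, 3.39 and 7.75 CPM in naive rats M157, M378, M476 and M480. Apart from M172, the withdrawal rats lay within or below the range of the naive rats. Its log2 fold change was 3.89 ± 1.53 (SE, n = 4 each), with an unadjusted edgeR p of 0.0162. An exact two-sided permutation test on the log2 CPM of the 8 rats gave p = 0.771, where the smallest p that 4 against 4 allows is 0.0286.

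The miR-183 cluster behaved the same way in the rats. miR-183-5p, a miRNA of sensory cells, had 21.9, 10.6, 636.8 and 7.202 CPM in withdrawal rats, in the same order, and 12.2, 14.3, 16.9 and 15.5 CPM in naive rats. This gave a log2 fold change of 3.24 ± 1.22 (SE). Its neighbour miR-182 had 10.8, 5.68, 204.6 and 7.49 CPM in withdrawal rats and 6.21, 10.6, 9.72 and 11.6 CPM in naive rats, a log2 fold change of 2.40 ± 0.96 (SE). In both, M172 was high and the other 3 withdrawal rats spread around the naive rats.

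M172 was also the highest rat in the remaining members. miR-200c-3p had 8.398, 8.12, 74.7 and 6.62 CPM in withdrawal rats and 6.93, 5.95, 6.77 and 5.28 CPM in naive rats, a log2 fold change of 1.94 ± 0.71 (SE). It was the 1 member whose log2 fold change stayed above 0 without M172, at 0.30. miR-200a-3p had 1.39, 1.03, 67.3 and 0.436 CPM in withdrawal rats and 0.602, 1.28, 0.936 and 1.76 CPM in naive rats. miR-429 had 7, 5, 287 and 0 counts in withdrawal rats and 7, 2, 4 and 3 in naive rats. The 2 arms with the seed AUCUUAC were near the limit of counting, with 3, 1, 111 and 0 counts of miR-200b-5p in withdrawal rats and 4, 1, 0 and 0 in naive rats. For miR-200a-5p the counts were 7, 3, 115 and 0 in withdrawal rats and 2, 3, 4 and 3 in naive rats. Log2 fold changes of these 4 were 3.79, 4.02, 4.32 and 3.06.

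Summed over the 8 miRNAs, M172 had 16537 counts, against 752, 552 and 327 in the other withdrawal rats and 552, 396, 532 and 482 in the naive rats. In the NAc, M172 led the other 11 rats of the series in each of the 8, by 2.43 to 5.15 on the log2 scale. The next miRNA in which it led was miR-451-5p of red blood cells, by 0.51. Without M172 the median log2 fold change of the 8 was −0.32, against 3.52 with all rats, with a range of −0.46 to 0.30, and 0 of the 8 were called. The other 449 miRNAs moved by a median of 0.069 when M172 was left out. In limma-voom, the method of the study, which averages log values, the median of the 8 was 0.946 with all rats and 0 were called.

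**Figure D2:**
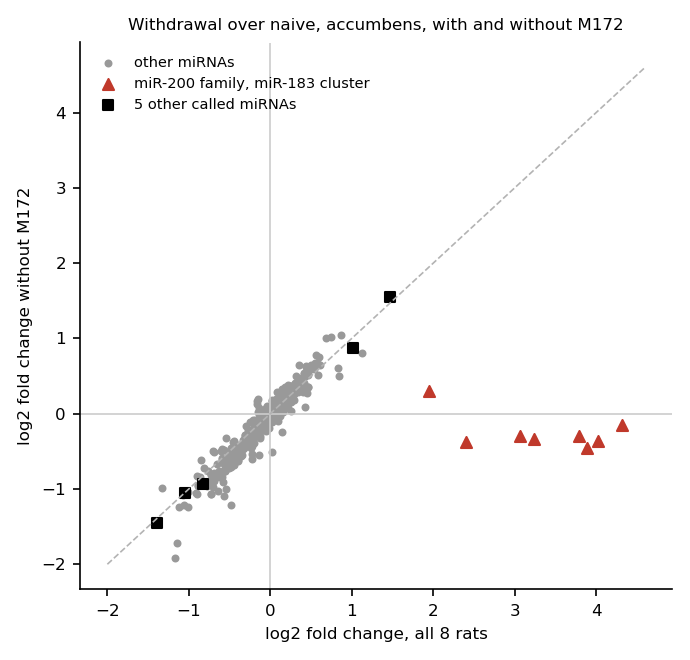
Log2 fold change of withdrawal over naive NAc without rat M172 (vertical axis) against that with all 8 rats (horizontal axis), 1 point per miRNA, with a dashed line of equality. The 8 triangles lie between 1.94 and 4.32 with all rats and between −0.46 and 0.30 without M172, while the 5 squares of the other called miRNAs stay near the line.

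The same rat was high in the PL. There M172 had 571.6 CPM of miR-200b-3p and 1593 CPM of miR-183-5p, against at most 62.5 and 119.1 CPM in the other 11 rats. Those maxima were from naive rat M157, and withdrawal rat M366 had 44.1 and 61.0 CPM. The medians of the 11 rats were 2.14 and 12.5 CPM, so raised levels in the PL were not confined to M172 or to withdrawal rats. In the IL it had 36.4 and 89.7 CPM, against at most 22.9 and 52.2 CPM. M172 was thus first among 12 rats for both miRNAs in each region, by a smaller margin in the IL. It did not lead the IL in every member. Another rat was higher there in miR-182 (11.5 against 9.36 CPM in M172), miR-429 (1.3 against 0.886 CPM) and miR-200b-5p (2.01 against 1.38 CPM).

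Summed markers of other tissues overlapped between the groups. Summed over the 8 measured miRNAs of other epithelia and endocrine cells (among them miR-192 and miR-194), levels were 145.9 to 312.0 CPM in withdrawal rats and 192.1 to 393.1 CPM in naive rats. Summed over the 8 measured miRNAs of choroid plexus and ependyma, led by miR-204, they were 1555 to 2458 CPM in withdrawal rats and 1548 to 2289 CPM in naive rats. The summed miR-200 list was 9.09 to 526.9 CPM in withdrawal rats, highest in M172, and 11.4 to 15.3 CPM in naive rats. The summed miR-183 list was 14.7 to 841.4 CPM in withdrawal rats, again highest in M172, and 18.4 to 27.1 CPM in naive rats. Among the other epithelial miRNAs, M172 led the other 11 rats in miR-194-3p, by 0.31 on the log2 scale. Without M172 the log2 fold change of miR-192-5p moved from −0.54 to −0.999, and that of miR-31a-5p from −0.19 to −0.09. The part of the dissection or of another tissue in these levels was not tested.

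**Figure D3:**
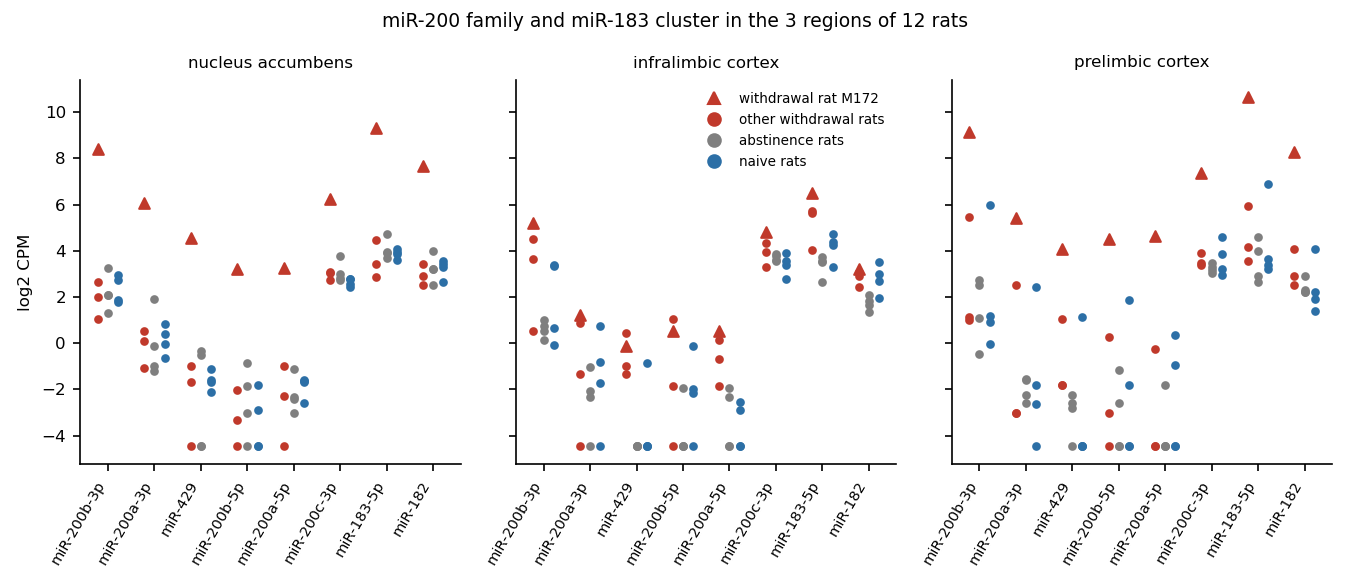
Log2 CPM (vertical axis) of the 8 miRNAs of the miR-200 family and miR-183 cluster in the NAc, IL and PL of 12 rats, 1 symbol per rat, with withdrawal left, abstinence in the middle and naive right at each miRNA. Withdrawal rat M172 (triangles) is above all other rats in every miRNA in the NAc and PL, and the lowest row of points marks libraries with 0 counts.

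The other 5 calls, of which 3 were lower in withdrawal rats, kept their direction without M172. miR-338-3p, miR-217-5p and miR-3550 were still called without it, while miR-382-3p (log2 fold change −1.06, unadjusted edgeR p of 0.0607) and miR-207 (0.87, unadjusted edgeR p of 0.104) were not. miR-338-3p, of oligodendrocytes, had 30.7, 20.3, 35.8 and 30.2 CPM in withdrawal rats and 50.7, 53.1, 26.9 and 70.5 CPM in naive rats. Of the naive rats, 3 lay above every withdrawal rat, and M476 lay among the withdrawal rats. The log2 fold change was −0.83 ± 0.39 (SE, n = 4 each), with an unadjusted edgeR p of 0.0422 and an exact permutation p of 0.114. It was the 1 called miRNA with a mean log2 CPM of at least 5.

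The other oligodendrocyte miRNAs tested were not called. miR-338-5p, from the other arm of the same hairpin, had 1040, 1344, 1212 and 1163 CPM in withdrawal rats and 1684, 1311, 1656 and 1014 CPM in naive rats, a log2 fold change of −0.26 ± 0.29 (SE). miR-219-2-3p, another miRNA of the oligodendrocyte list, had 2692, 3059, 2963 and 2810 CPM in withdrawal rats and 3198, 2504, 3590 and 2560 CPM in naive rats. Its log2 fold change was −0.01 ± 0.38 (SE). Both groups overlapped in each. Of the 4 oligodendrocyte miRNAs tested, 1 was called lower and 0 higher, beside 0.656% lower and 2.19% higher over all 457. Their summed level was 3770 to 4432 CPM in withdrawal rats and 3652 to 5283 CPM in naive rats.

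miR-382-3p had 11.4, 11.5, 19.9 and 34.4 CPM in withdrawal rats and 35.01, 42.1, 10.2 and 65.4 CPM in naive rats. Again 3 naive rats lay above every withdrawal rat, and M476 was the lowest of the 8. Naive rat M480 was the highest, as it was in miR-338-3p. The log2 fold change was −1.04 ± 0.49 (SE), with an unadjusted edgeR p of 0.0409 and an exact permutation p of 0.286. Without M480 it was −0.69 (unadjusted edgeR p of 0.188), and that of miR-338-3p was −0.65 (unadjusted edgeR p of 0.13). M480 stood over 1 log2 unit above all other NAc libraries in 6 of 404 miRNAs. M172 did so in 5, all 404 having a mean log2 CPM above 0. The other arm of its hairpin, miR-382-5p, had 2105, 2180, 1844 and 2028 CPM in withdrawal rats and 2171, 1853, 1901 and 1921 CPM in naive rats, a log2 fold change of 0.05 ± 0.13 (SE). Of the 81 miRNAs of the Dlk1-Dio3 locus tested, miR-382-3p was the 1 called lower and 0 were called higher. Over all 457 these shares were 0.656% and 2.19%. Their median log2 fold change was 0.016, beside 0.009 over all miRNAs tested.

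RNA integrity moved with miR-382-3p. Over all 36 libraries its level rose by 0.909 on the log2 scale per RIN unit, with an unadjusted edgeR p of 0.0154. M476 had the lowest RIN of the 8 rats. The 36 libraries came from 12 rats and were treated as separate. Abstinence rat M363 had RIN of 7.4 (PL), 7.9 (IL) and 8.1 (NAc), with 0.955, 3.13 and 3.45 CPM of miR-382-3p. At the low end of the slope, RIN therefore cannot be told apart from this rat. A slope on RIN with an unadjusted p under 0.05 was found for 88 of 457 miRNAs (19.3%). For miR-338-3p the slope was 0.506, with an unadjusted edgeR p of 0.0546. Without RIN in the model neither was called, with log2 fold changes of −0.98 for miR-382-3p and −0.78 for miR-338-3p.

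miR-217-5p, best known from the pancreas, had 27, 9, 14 and 10 counts in withdrawal rats and 42, 10, 98 and 17 in naive rats. M476 held the highest count. The log2 fold change was −1.39 ± 0.59 (SE), with an unadjusted edgeR p of 0.0257 and an exact permutation p of 0.143. Without M476 it was −0.66, and the call was lost.

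The other 2 calls were higher in withdrawal rats and were both among the scarcest miRNAs tested. miR-3550 had 5, 20, 7 and 13 counts in withdrawal rats and 8, 1, 6 and 1 in naive rats, a log2 fold change of 1.48 ± 0.65 (SE) with an unadjusted edgeR p of 0.0304. miR-207 had 6, 14, 10 and 7 counts in withdrawal rats and 3, 4, 5 and 3 in naive rats. It was the 1 called miRNA whose groups did not overlap in CPM. Its log2 fold change was 1.01 ± 0.48 (SE), with an unadjusted edgeR p of 0.0449 and an exact permutation p of 0.0286. The call was lost in limma-voom (unadjusted p of 0.0522) and in DESeq2 (unadjusted p of 0.0656). It was also lost in edgeR with library totals in place of TMM and with no filter on low counts, and was kept without RIN in the model.

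**Figure D4:**
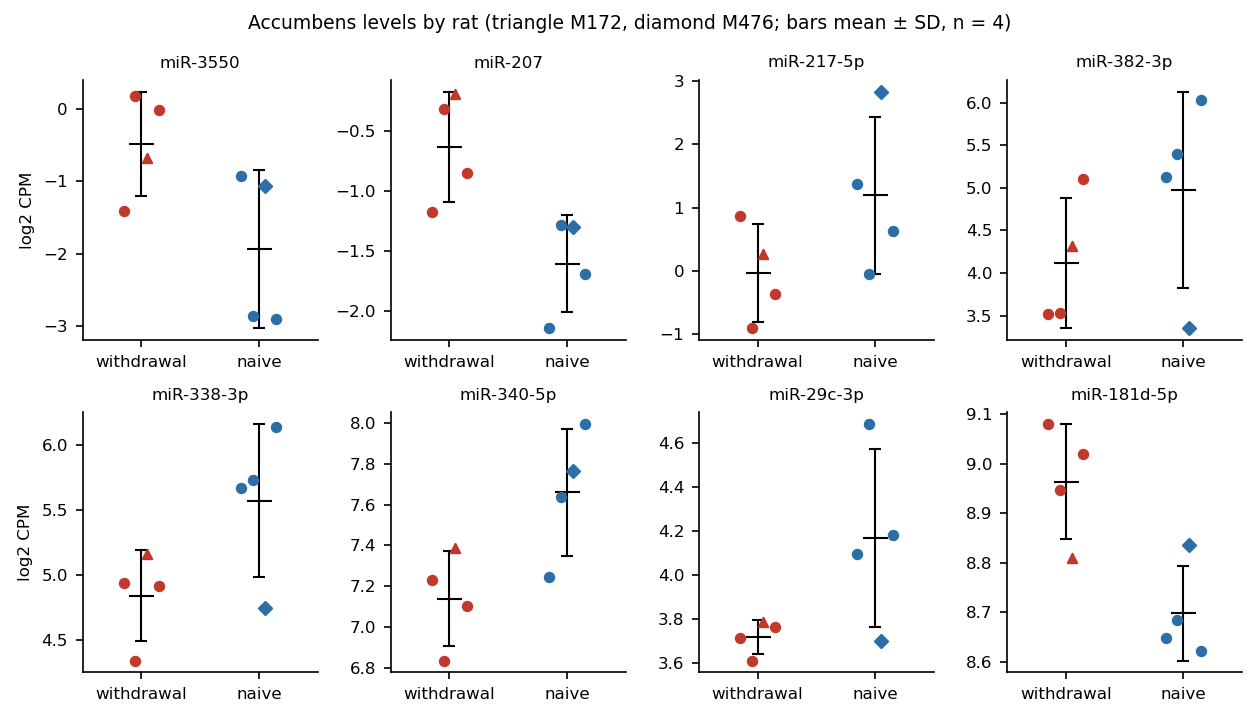
Log2 CPM in the NAc by rat (vertical axes, which differ between panels) for the 5 called miRNAs outside the miR-200 family and miR-183 cluster and for miR-340-5p, miR-29c-3p and miR-181d-5p, with withdrawal left and naive right, and bars for the mean and SD of 4 rats. In miR-338-3p, miR-382-3p and miR-29c-3p the naive rat M476 (diamond) lies with the withdrawal rats, and only miR-207 separates all 4 withdrawal rats from all 4 naive rats.

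Groups that did not overlap at all were rare. In 4 of 457 miRNAs every withdrawal rat was above every naive rat (0.875%) and in 1 every withdrawal rat was below (0.219%), 1.09% together. With group labels assigned to the rats at random, a miRNA separates fully in either direction with a probability of 0.0286. The share seen was lower than that. Besides miR-207, the 4 higher ones were miR-351-5p, miR-668 and miR-764-5p. miR-668, of the Dlk1-Dio3 locus, had 264.0, 313.8, 215.8 and 239.3 CPM in withdrawal rats and 207.0, 205.3, 207.5 and 163.7 CPM in naive rats, a log2 fold change of 0.43 ± 0.22 (SE). miR-764-5p, from an intron of the serotonin 2C receptor gene, had 17.99, 19.3, 16.8 and 15.8 CPM in withdrawal rats and 12.8, 13.4, 13.97 and 14.1 CPM in naive rats. miR-380-3p, also of the Dlk1-Dio3 locus, was the 1 lower, with 45.4, 39.3, 47.1 and 40.2 CPM in withdrawal rats and 50.2, 65.3, 53.1 and 77.5 CPM in naive rats. The change was −0.53 ± 0.31 (SE) on the log2 scale. Of the 5, miR-207 alone passed the thresholds.

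Next to the calls stood miRNAs of moderate abundance with changes under 1.5-fold. miR-340-5p had 149.8, 114.1, 167.1 and 137.4 CPM in withdrawal rats and 151.9, 198.7, 217.1 and 255.1 CPM in naive rats. Here 3 naive rats were above every withdrawal rat and M157 lay among them. The log2 fold change was −0.51 ± 0.20 (SE), with an unadjusted edgeR p of 0.0139 and an exact permutation p of 0.0571. miR-181d-5p, of a family abundant in striatum, had 541.1, 493.1, 448.8 and 518.7 CPM in withdrawal rats and 401.0, 411.6, 456.8 and 393.9 CPM in naive rats. Its log2 fold change was 0.27 ± 0.11 (SE), with an unadjusted edgeR p of 0.0230. The more abundant miR-181a-5p, with the same seed, had a log2 fold change of 0.05 ± 0.14 (SE). miR-346, which lies in the gene of the glutamate receptor subunit Grid1, had 138.3, 163.3, 119.1 and 124.4 CPM in withdrawal rats and 104.5, 120.2, 101.1 and 100.9 CPM in naive rats. The change was 0.38 ± 0.17 (SE) on the log2 scale. For miR-598-3p, miR-935 and miR-383-5p log2 fold changes were −0.51, 0.46 and 0.40, with unadjusted edgeR p of 0.0299, 0.0462 and 0.0481.

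The miR-29 family was measured through 6 arms, of which 5 had a log2 fold change below 0 and 0 were called. Over all 457 miRNAs tested, 50.3% had a log2 fold change above 0. miR-29c-3p had 13.1, 12.2, 13.7 and 13.5 CPM in withdrawal rats and 17.0, 25.7, 13.0 and 18.1 CPM in naive rats, a log2 fold change of −0.49 ± 0.23 (SE). miR-29b-3p had 41.8, 42.6, 51.4 and 63.4 CPM in withdrawal rats and 64.7, 90.4, 45.7 and 68.0 CPM in naive rats, a log2 fold change of −0.43 ± 0.21 (SE). In both, 3 naive rats were above every withdrawal rat and M476 was not. Without M476 both were called lower, at −0.64 for miR-29c-3p and −0.59 for miR-29b-3p. Without M378, the highest naive rat in both, neither was called. The log2 fold changes were then −0.28 for miR-29c-3p (unadjusted edgeR p of 0.252) and −0.24 for miR-29b-3p (unadjusted edgeR p of 0.270). The abundant miR-29a-3p, with the same seed, had a log2 fold change of −0.19 ± 0.15 (SE). The median of the 6 arms was −0.23.

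In the miR-30 family 10 of 13 arms had a log2 fold change below 0, with a median of −0.19, and 0 were called. Of all miRNAs tested, 50.3% were above 0. miR-30b-5p had 20.5, 20.6, 16.7 and 29.8 CPM in withdrawal rats and 38.9, 41.9, 18.5 and 29.2 CPM in naive rats. The groups overlapped, and its log2 fold change of −0.60 ± 0.30 (SE) had an unadjusted edgeR p of 0.0511. It was called lower in limma-voom (−0.61, unadjusted p of 0.0265) and in DESeq2 (−0.59, unadjusted p of 0.0421), with NAc libraries alone, with the stricter filter on low values, and without M154, M476 or M480. Its slope on RIN was 0.526 per unit, with an unadjusted edgeR p of 0.0128, and M476 was the lowest of the naive rats.

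Lists of miRNAs with known cell types or roles gave no further calls, where 2.84% of all 457 miRNAs were called. Of 20 neuron-enriched miRNAs tested 0 were called, with a median log2 fold change of −0.022. Of 8 activity-regulated miRNAs (the arms of miR-132, miR-212, miR-134 and miR-485) 0 were called, with a median of 0.087. Within that list miR-132-3p, which is induced by neuronal activity, had 1766, 2166, 1675 and 1783 CPM in withdrawal rats and 1571, 1625, 2060 and 1460 CPM in naive rats, a log2 fold change of 0.23 ± 0.17 (SE). Of 14 miRNAs tied to cocaine in rodent striatum in earlier work, among them miR-124, let-7d, miR-181a and miR-212, 0 were called, with a median of 0.041.

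Of 13 astrocyte-enriched miRNAs 0 were called and 10 had a log2 fold change below 0, with a median of −0.19. This list contains the 6 arms of the miR-29 family. Beside the counts below 0 given here, 50.3% of all miRNAs tested were above 0. Of 6 vascular miRNAs 5 were below 0, with a median of −0.34, and of 6 miRNAs of microglia and immune cells 5 were below 0, with a median of −0.11. None of the 12 was called. Of 17 let-7 arms 0 were called, with a median of 0.039, of 8 miR-181 arms 0, with a median of 0.112, and of 6 miRNAs hosted by the serotonin 2C receptor gene 0, with a median of −0.037. Of 4 muscle miRNAs 0 were called, with a median of −0.26. The 6 accumbens-enriched miRNAs had a median of −0.26 with 0 calls. The 1 red blood cell miRNA tested, miR-451-5p, had 22, 20, 39 and 31 counts in withdrawal rats and 12, 8, 7 and 18 in naive rats. Its log2 fold change of 1.13 ± 0.66 (SE) had an unadjusted edgeR p of 0.0968.

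In the IL of the same rats 29 of 457 miRNAs passed the same thresholds (6.35%), and in their PL 22 did (4.81%), with 0 adjusted p-values under 0.05 in either. Of the 13 miRNAs called in the NAc, the IL had 1 call in the same direction. The PL had 4 in the same direction and 2 in the opposite one. The 1 in the IL was miR-382-3p, with a log2 fold change of −1.29 ± 0.58 (SE). There it had 0.696, 2.25, 1.48 and 0.941 CPM in withdrawal rats and 3.38, 5.35, 3.73 and 4.29 CPM in naive rats. These levels were low, beside a median of 27.1 CPM in the 8 NAc libraries. How many of the 457 miRNAs separate the groups in the IL was not counted. The 4 in the PL were miR-182, miR-183-5p, miR-200a-5p and miR-200c-3p, where M172 was also the highest rat. Every withdrawal library of the PL held more counts than any naive one, and depth cannot be told apart from group in that region.

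The 2 with opposite calls in the PL were miR-338-3p and miR-207. miR-338-3p had 10.1, 7.60, 9.05 and 21.1 CPM in the PL of withdrawal rats and 4.49, 2.69, 10.4 and 7.66 CPM in the PL of naive rats, a log2 fold change of 0.88 ± 0.41 (SE). The change in the NAc minus that in the PL was −1.71 ± 0.56 (SE), with an unadjusted edgeR p of 0.00477 and an adjusted p of 0.501. miR-207 was near the limit of counting in the PL, with 0.713, 0.531, 0.127 and 0.396 CPM in withdrawal rats. Naive rats had 0.873, 1.64, 0.784 and 0.608 CPM there, and the groups overlapped. Its log2 fold change was −1.12 ± 0.47 (SE) in the PL, and the difference was 2.13 ± 0.67 (SE), with an unadjusted edgeR p of 0.00322 and an adjusted p of 0.501.

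The difference between the NAc and the IL was called for 5 of 457 miRNAs (1.09%), 1 higher in the NAc (0.219%) and 4 lower (0.875%). That between the NAc and the PL was called for 31 (6.78%), 18 higher (3.94%) and 13 lower (2.84%). None had an adjusted p under 0.05 in edgeR, limma-voom or DESeq2, and an unadjusted p under 0.05 was reached by 5 (1.09%) against the IL and by 34 (7.44%) against the PL. miR-217-5p differed by −2.63 ± 0.95 (SE) from the IL and by −2.41 ± 0.88 (SE) from the PL, since its log2 fold change was 1.24 in the IL and 1.02 in the PL. Its cortex levels in these rats were near the limit of counting, at 0.207 to 1.51 CPM in the IL and 0.234 to 2.55 CPM in the PL. miR-340-5p differed by −0.86 ± 0.28 (SE) from the IL, where its log2 fold change was 0.35, and by −0.67 ± 0.28 (SE) from the PL. miR-29b-3p differed by −0.67 ± 0.31 (SE) from the IL. The remaining 2 against the IL were miR-496-5p, at 1.16, and miR-542-5p, at −1.56, which had 4 to 13 counts per NAc library.

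**Figure D5:**
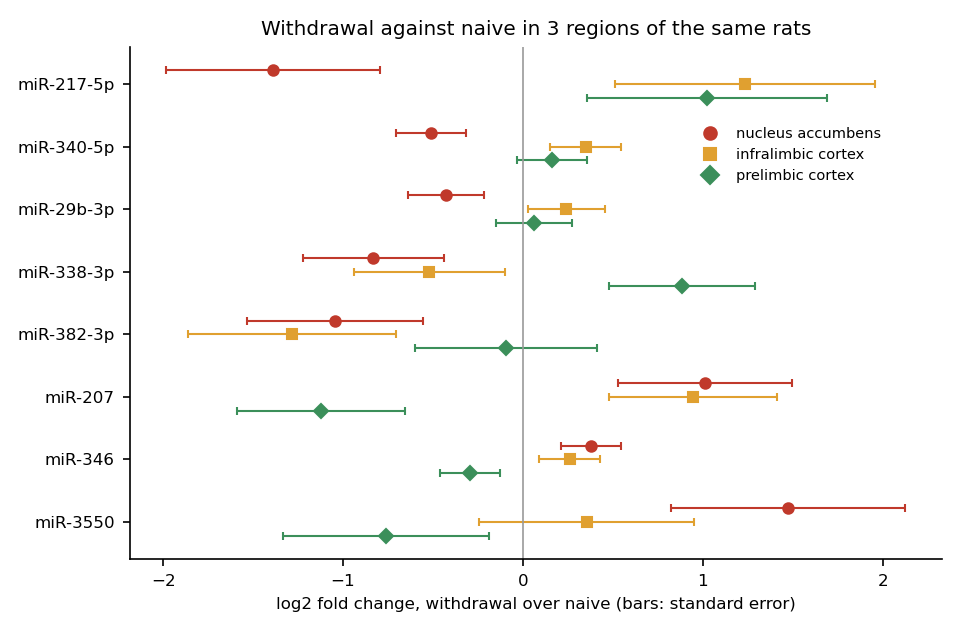
Log2 fold change of withdrawal over naive (horizontal axis, with standard errors) in the NAc, IL and PL of the same rats for 8 miRNAs named in the text. miR-217-5p, miR-340-5p and miR-29b-3p are below 0 in the NAc alone, and miR-338-3p and miR-207 have opposite signs in the NAc and PL.

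After 4 weeks of abstinence, a comparison that shares the 4 naive NAc libraries, 5 of 457 miRNAs were called against naive rats (1.09%). Of the 13 miRNAs called at withdrawal, none was among them. Side by side, log2 fold changes at withdrawal and at abstinence were −0.83 and −0.36 for miR-338-3p, −1.04 and −0.95 for miR-382-3p, −1.39 and −1.11 for miR-217-5p, 1.48 and 1.26 for miR-3550, and 1.01 and 0.95 for miR-207. For miR-200b-3p they were 3.89 and 0.38, and for miR-183-5p 3.24 and 0.45.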

How the data were processed

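Counts per mature miRNA for 36 libraries were used as deposited. According to the methods, the authors made libraries with a NEBNext small RNA kit and counted reads with CAP-miRseq. The methods call the values in the repository normalized, but the deposited table holds whole numbers with a different total in each library, and it was treated as counts without normalization. The methods name the genome build rn6 and the submitters' processing notes mRatBN7.2 (rn7). Of 723 miRNAs, filterByExpr (minimum count 10, minimum total 15) kept 457. Library sizes were scaled by TMM, and edgeR 4.0.16 (R 4.3.3) was fitted to all 36 libraries with 1 mean for each of 9 combinations of group and region and RIN as a covariate. The call thresholds followed the study. Log2 CPM used a prior count of 0.5. limma 3.58.1 and DESeq2 1.42.0 were alternatives, with other scalings, filters and models, and with the NAc library of each rat left out in turn. A result without a rat is without its NAc library, while its IL and PL libraries stayed in the model. Standard errors are approximate. The model was tested on simulated data. Named miRNAs were those called, the 10 next by p, the largest changes among abundant ones, the 5 most abundant, the leading regional differences, the most abundant of each list and 2 that the study names; the non-overlapping ones, miR-382-5p, miR-132-3p and miR-181a-5p were added after their values were seen. Members and lists were chosen with earlier results of these data known. Libraries were tied to rats by the labels and the sample sheet of the study, except the NAc library of naive rat M480, tied by the design. Mature sequences were found in RefSeq for 411 of the 457. Rats are separate animals, and no pair of libraries in a group agreed within sampling noise (lowest chi-square per degree of freedom 318.7).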

Additional observations from a re-analysis of the deposited data

Results flagged for a closer look

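In the groups of 4 rats, 118 groups of 59 named miRNAs were checked for 1 rat far from the other 3, and 4 were found, where chance gives about 1 in 20 groups. miR-200c-3p was at 6.22 log2 CPM in withdrawal rat M172, against 2.74 to 3.08 in the other withdrawal rats. miR-200a-5p was at −2.59 log2 CPM in naive rat M157, against −1.69 to −1.58 in the other naive rats, a difference of 1 or 2 counts. miR-206-3p was at 4.49 log2 CPM in naive rat M480, against 4.15 to 4.17 in the other naive rats. miR-543-3p was at 13.27 log2 CPM in naive rat M157, against 13.59 to 13.66 in the other naive rats.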

How the results depend on the processing

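The 10 higher and 3 lower calls became 1 and 8 in limma-voom, with 4 calls shared, and 5 and 6 with NAc libraries alone (437 miRNAs). No filter gave 11 and 7 (628 miRNAs), a minimum of 5 CPM in 4 libraries 5 and 3, and no RIN 9 and 1. DESeq2 gave 8 and 4. Adjusted p-values under 0.05 were 0 in each. Leaving out the NAc library of 1 rat gave 2 to 10 higher and 0 to 10 lower. Without M172 there were 2 and 6, and without M476 9 and 10. The differences between regions numbered 3 to 7 (IL) and 16 to 43 (PL) with 1 NAc library left out. The cortex libraries of that rat were kept, so these ranges do not leave out a whole rat. With the stricter filter the IL difference had 2 calls, and at a fold change of at least 2 the counts were 3 (IL) and 15 (PL). With each rat left out in turn, log2 fold changes ran between −0.383 (without M172, as for each lower end here) and 2.796 for miR-182, −0.337 and 3.65 for miR-183-5p, −0.298 and 4.212 for miR-200a-3p, −0.295 and 3.569 for miR-200a-5p, −0.458 and 4.297 for miR-200b-3p, −0.149 and 5.441 for miR-200b-5p, and −0.365 and 4.449 for miR-429. The other calls were lost without any 1 of M153, M366, M154, M157, M378 or M480 (miR-338-3p), M153, M366, M172, M378 or M480 (miR-382-3p), M366, M172, M157, M378 or M480 (miR-207), M366, M154, M378, M476 or M480 (miR-3550), and M366, M154 or M476 (miR-217-5p). miR-30b-5p gained a call in 8 alternatives. The cause was not tested.

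Withdrawal and naive rats are different animals, so no pairing between them exists. A replicate block by rat, over the 3 regions of each rat, gave a correlation of 0.117 and 1 higher and 8 lower calls in limma-voom, with 47 calls in the difference from the PL.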
